A study of Mus musculus with 6 samples.

Results

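The neutrophil recruitment axis described here is a set of 10 mouse genes named by symbol: the chemokines Cxcl1, Cxcl2, Cxcl3 and Cxcl5, their receptor Cxcr2, the growth factor Csf3 and its receptor Csf3r, and the neutrophil products S100a8, S100a9 and Mmp8. All 10 had a row among the 23508 genes of the counts table, and all 10 passed the filter on low counts that left 16755 genes for testing. RNA was sequenced from 6 tumors of 4T1, a mouse mammary carcinoma line widely used to study triple-negative breast cancer in mice. Of these, 3 tumors were labelled as collected before a peak of the neural activity recorded in the tumor (before-peak replicates 1 to 3) and 3 as collected with that peak (with-peak replicates 1 to 3). The series design places the latter on the day of the first peak and asks which transcripts differ when neural activity sets in. The labels give no treatment, strain, age or day after grafting, so time of collection and the peak cannot be told apart, and they do not say whether each tumor came from its own animal.

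CXCL1, CXCL2, CXCL3 and CXCL5 are secreted chemokines with a glutamate-leucine-arginine motif that attract neutrophils through CXCR2, the main chemokine receptor of mature neutrophils. CSF3, also called G-CSF, drives the making of neutrophils in the bone marrow and their release, acting through CSF3R on cells of the granulocyte line. S100A8 and S100A9 pair as calprotectin, the most abundant protein of the neutrophil cytosol, and MMP8 is the collagenase stored in neutrophil granules. 4T1 is known as a line whose tumors secrete CSF3 and bring on a rise of neutrophils in the blood of the mouse that carries them. In bulk tissue, fewer cells of a type and less RNA per cell cannot be told apart.

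The chemokine genes Cxcl1, Cxcl2 and Cxcl3 hold the same run of 11 bases close before their start sites. The stretches around it are shown because the level of Cxcl1 did not follow those of Cxcl2 and Cxcl3 across the tumors. Each runs from base -110 to base -30 counted from the RefSeq start (GRCm38.p6, plus strand, 5′ to 3′), and the capitals mark the shared run.
Cxcl1, chr5:90891135-90891215: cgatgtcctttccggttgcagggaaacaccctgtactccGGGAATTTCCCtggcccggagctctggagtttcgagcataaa
Cxcl2, chr5:90903789-90903869: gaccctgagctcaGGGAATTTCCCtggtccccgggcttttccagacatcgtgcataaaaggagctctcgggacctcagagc
Cxcl3, chr5:90785991-90786071: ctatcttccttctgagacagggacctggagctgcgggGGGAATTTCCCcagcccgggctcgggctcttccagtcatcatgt
The run GGGAATTTCCC was the longest that all 3 genes held in the 250 bases before their starts, and it contains a known binding sequence of the transcription factor NF-kappaB. It began at base -71 in Cxcl1, -97 in Cxcl2 and -73 in Cxcl3. The GENCODE start of Cxcl2, at 90903871, lies upstream of its RefSeq start, so the position in Cxcl2 depends on the annotation used. Looked for on both strands from 250 bases before to 50 bases after each start, the run stood in 14 of all 32851 promoters in the table (0.043%), these 3 among them by choice. Of the other 7 genes of the axis, Cxcl5 and Csf3 had no promoter entry and the remaining 5 did not hold it. A match of letters is a description and not a shown binding site.

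No gene of the axis passed the test of with-peak against before-peak tumors. By the edgeR quasi-likelihood test with Benjamini-Hochberg adjustment over all 16755 genes, 0 of the 10 had an adjusted p under 0.05, as for 0% of all genes, and the adjusted p of the 10 ran from 0.427 to 0.814. DESeq2 called 0 of the 10 (adjusted p 0.218 to 0.922) and 1.55% of all genes. At an unadjusted p under 0.05 there were 3 of the 10, 2 higher (Csf3r and Mmp8) and 1 lower (Cxcl1) with peak, where 9.5% of all genes reached that level, 6.12% higher and 3.38% lower. Fitted log2 fold changes were above 0 for 8 of the 10, against 47.7% of all genes, with a median of 0.59 against -0.02 over all genes. The exceptions were Cxcl1 and Csf3. The log2 fold changes kept their sign in all 17 alternative settings for each of the 10 genes. Among these, the setting with an adjusted p under 0.1 keeps the main fit, so no sign could change there.

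**Figure D1:**
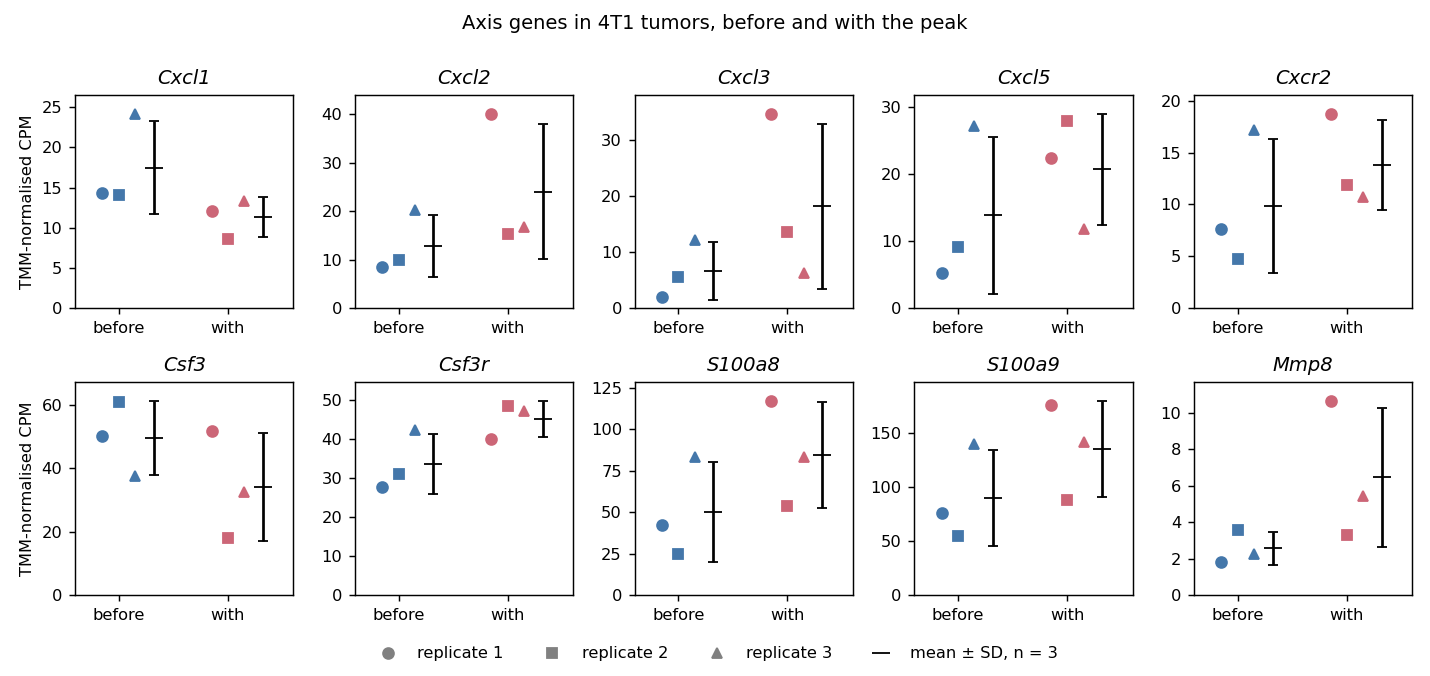
TMM-normalised CPM (vertical axes, each starting at 0) of the 10 genes in 3 before-peak (blue) and 3 with-peak (red) tumors, with the marker shape giving the replicate and the black bar the mean ± SD. Cxcl1 is the only panel in which the groups do not overlap, with 14.0 to 24.2 CPM before the peak, then 8.62 to 13.4 CPM at the peak.

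Cxcl1 (ENSMUSG00000029380, chromosome 5, 90891241 to 90893115, plus strand, 4 exons) had its 3 with-peak values all below its 3 before-peak values. It was at 14.3, 14.0 and 24.2 CPM (the gene's count relative to the size of its library after TMM scaling) in before-peak replicates 1, 2 and 3. With the peak the same gene was at 12.1, 8.62 and 13.4 CPM, again in the order of replicates, which is kept below. Cxcl1 was the 1 gene of the 10 whose groups did not overlap, against 15.5% of all genes (8.13% higher and 7.38% lower), and the closest values of the groups, 14.0 and 13.4 CPM, lay near each other. The fitted log2 fold change was -0.62 (SE 0.27, 95% interval -1.23 to -0.01; unadjusted p = 0.0482, edgeR adjusted p = 0.523). Without before-peak replicate 3, the tumor with the highest Cxcl1, it was -0.32.

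Cxcl2 and Cxcl3, the close paralogs of Cxcl1 in the same cluster, had fitted changes of the opposite sign. Cxcl2 (ENSMUSG00000058427, chromosome 5, 90903871 to 90905938) was at 8.51, 9.87 and 20.2 CPM before the peak, then 40.1, 15.3 and 16.7 CPM at the peak. With-peak replicate 1 stood far above the other 5 tumors, and before-peak replicate 3 lay above with-peak replicates 2 and 3. On the log2 scale the fold change was 0.91 (SE 0.49, 95% interval -0.28 to 2.09; edgeR adjusted p = 0.632), 0.32 without with-peak replicate 1 and 1.39 without before-peak replicate 3. Cxcl3 (ENSMUSG00000029379, chromosome 5, 90786103 to 90789600) spanned the widest range of the axis, from 1.93, 5.64 and 12.2 CPM before the peak to 34.7, 13.6 and 6.31 CPM with it. Its lowest value rests on 24 counts and its highest on 495. The groups overlapped through before-peak replicate 3 and with-peak replicate 3, and the log2 fold change of 1.48 had the largest error of the axis (SE 0.86, 95% interval -0.66 to 3.62; edgeR adjusted p = 0.661). Without with-peak replicate 1 the log2 fold change of Cxcl3 was 0.61, and with before-peak replicate 3 left out it was 2.27. The transcripts of Cxcl2 and Cxcl3 share 61 windows of 50 bases, of 1060 in Cxcl2 and 967 in Cxcl3, so a small part of their counts could come from the other gene, while Cxcl1 shares none.

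Cxcl5 (ENSMUSG00000029371, chromosome 5, 90759360 to 90761624), the ligand mostly made by epithelial and stromal cells, was at 5.22, 9.08 and 27.2 CPM before the peak, then 22.4, 28.0 and 11.7 CPM at the peak. Before-peak replicate 3 lay between the 2 highest with-peak tumors, and before-peak replicates 1 and 2 below all 3. The fitted log2 fold change was 0.59 (SE 0.66, 95% interval -1.04 to 2.22; edgeR adjusted p = 0.814). It was 1.54 without before-peak replicate 3 and 0.20, 0.36 and 0.31 when before-peak replicate 1, before-peak replicate 2 or with-peak replicate 2 was left out.

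The groups did not overlap in the share that Cxcl1 took of the ligands, although they did in the sum and in the shares of Cxcl2, Cxcl3 and Cxcl5. On a scale of CPM per kb of transcript, which allows levels of different genes to be compared, the 4 ligands summed to 27.9, 34.9 and 72.8 before the peak, then to 97.3, 54.0 and 42.8 at the peak. Of that sum Cxcl1 made up 53.8%, 42.1% and 34.9% before the peak and 13.1%, 16.8% and 32.9% with it. Cxcl1 was the most abundant of the 4 ligands in 3 of 3 before-peak tumors and in 0 of 3 with-peak tumors, where Cxcl2 led in replicates 1 and 3 and Cxcl5 in replicate 2. The mean share of Cxcl1 was 43.6% ± 9.55 in before-peak and 20.9% ± 10.5 in with-peak tumors (SD, n = 3; two-sided exact permutation p = 0.1, the smallest that 3 against 3 tumors allow). With lengths taken over all exonic bases of each gene, the shares of Cxcl1 ran from 31.7% to 50.5% in before-peak and from 13.5% to 30.6% in with-peak tumors, but Cxcl5 and not Cxcl1 led in before-peak replicate 3.

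**Figure D2:**
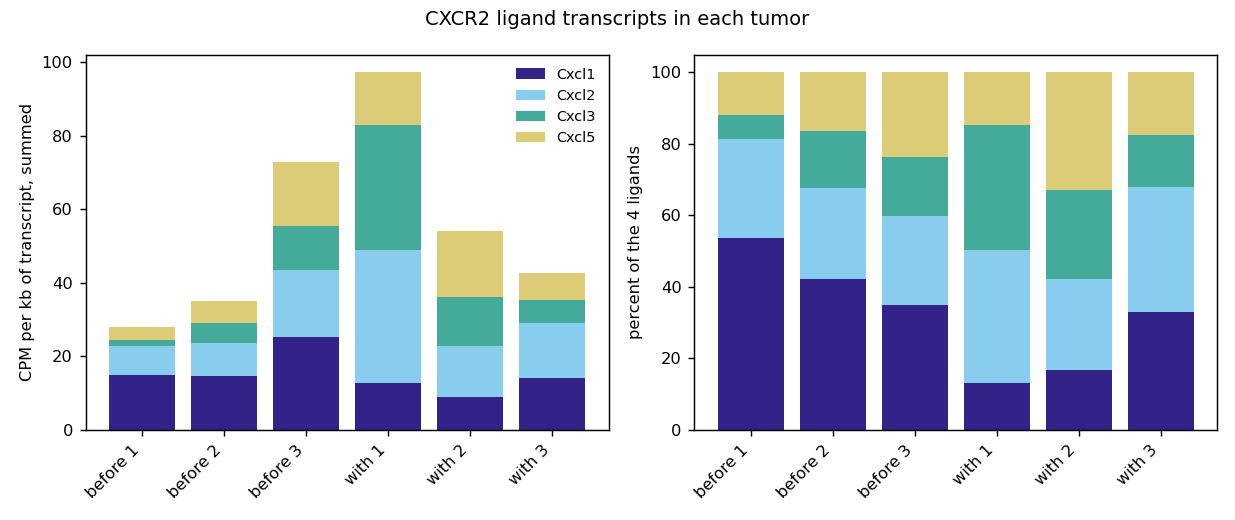
Left, CPM per kb of transcript (vertical axis from 0) of the 4 CXCR2 ligands, stacked for each of the 6 tumors. Right, the same as percent of the 4-ligand sum, in which Cxcl1 takes 34.9% to 53.8% in before-peak tumors and 13.1% to 32.9% in with-peak tumors.

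The ratio of counts of 2 genes within a tumor does not depend on library scaling. The ratio of Cxcl2 to Cxcl1 was 0.596, 0.704 and 0.835 before the peak and 3.30, 1.77 and 1.25 with it. All before-peak tumors thus held fewer counts of Cxcl2 than of Cxcl1, and all with-peak tumors held more. The difference on the log2 scale was 1.46 (two-sided exact permutation p = 0.1; 0.48 adjusted over the 12 ratios computed), and it stayed between 1.08 and 1.78 when any 1 tumor was left out. Of the 12 ratios, this was the 1 in which the groups did not overlap. The share of Cxcl1 and these ratios were chosen after the values were seen.

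Cxcr2 (ENSMUSG00000026180, chromosome 1, 74153989 to 74161246), the receptor of all 4 ligands, was at 7.62, 4.78 and 17.2 CPM before the peak. The with-peak tumors held 18.7, 11.9 and 10.7 CPM. Before-peak replicate 3 lay among the with-peak tumors and the other 2 before-peak tumors below all of them. On the log2 scale the fold change was 0.49 (SE 0.46, 95% interval -0.60 to 1.57; edgeR adjusted p = 0.781), which leaves room for a fold between 0.662 and 2.97. Without before-peak replicate 3 it was 1.15, with an edgeR adjusted p of 0.259, but dropping before-peak replicate 2 gave 0.16 and dropping with-peak replicate 1 gave 0.20. Of the 2997 windows of 50 bases in its transcript, 122 also occur in other genes. Cxcr1, the other receptor of this type, had only 2 to 7 counts per tumor and was not tested.

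Csf3 (ENSMUSG00000038067, chromosome 11, 98701263 to 98703629, 5 exons) was the growth factor of the axis and had the higher mean level before the peak. It was at 50.3, 60.8 and 37.5 CPM before the peak. With it, Csf3 was at 51.9, 18.0 and 32.4 CPM. With-peak replicate 1 lay within the before-peak range, while with-peak replicates 2 and 3 lay below every before-peak tumor. The fitted log2 fold change was -0.54 (SE 0.39, 95% interval -1.47 to 0.40; edgeR adjusted p = 0.719). It was -0.98 without with-peak replicate 1 (edgeR adjusted p = 0.424) and -0.23 without with-peak replicate 2. Markers of the carcinoma cells, among them Epcam, Krt8 and Krt18, summed to 4066 to 5357 CPM before the peak, then 3436 to 4933 CPM at the peak. With-peak replicate 2 was lowest both in that sum and in Csf3. With-peak replicate 1, however, had a lower sum (4144 CPM) than with-peak replicate 3 (4933 CPM) but the higher Csf3. Of the 12 markers, 10 had negative log2 fold changes, with a median of -0.20, and their part in the level of Csf3 was not tested.

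Csf3r (ENSMUSG00000028859, chromosome 4, 126024550 to 126044440, 17 exons), the receptor of CSF3, varied least among the 10 genes. Its levels were 27.5, 30.9 and 42.2 CPM before the peak, then 39.9, 48.3 and 47.0 CPM at the peak. The groups overlapped only in that before-peak replicate 3 exceeded with-peak replicate 1. On the log2 scale the fold change was 0.43 (SE 0.18, 95% interval 0.03 to 0.82; unadjusted p = 0.037, edgeR adjusted p = 0.501), and without before-peak replicate 3 it was 0.62 (edgeR adjusted p = 0.196). Counts of Csf3 exceeded those of Csf3r by a ratio of 1.83 and 1.97 in before-peak replicates 1 and 2 and 1.30 in with-peak replicate 1. The ratio was 0.889, 0.373 and 0.689 in before-peak replicate 3 and with-peak replicates 2 and 3. The ratio thus varied within both groups. Of the 3432 windows of 50 bases in the Csf3r transcript, 385 also occur in other genes, 325 of them in a pseudogene that had 0 to 3 counts per tumor.

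**Figure D3:**
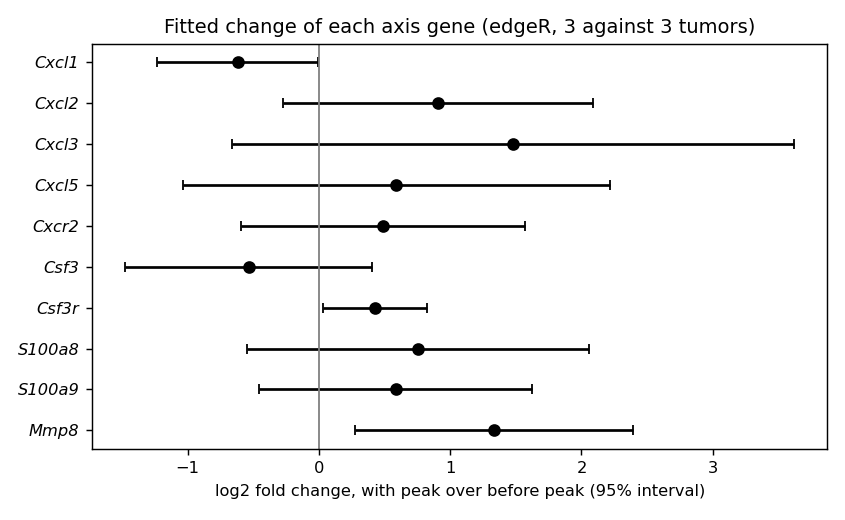
Fitted log2 fold change of each axis gene (horizontal axis, with peak over before peak, edgeR, 3 against 3 tumors) with its 95% interval, not adjusted for the number of genes. The interval lies above 0 for Csf3r and Mmp8 and below 0 for Cxcl1, and spans 0 for the other 7 genes; 0 of the 10 pass after adjustment.

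S100a8 and S100a9, the calprotectin subunits (chromosome 3, 90668978 to 90670035 and 90692632 to 90695721), were the most abundant transcripts of the axis per length. S100a8 was at 42.5, 24.7 and 83.5 CPM before the peak, then 117, 53.4 and 83.2 CPM at the peak. S100a9 was at 76.0, 54.6 and 140.0 CPM before the peak, then 176, 87.8 and 142 CPM at the peak. Both genes ordered the tumors nearly alike, with with-peak replicate 1 highest and before-peak replicate 2 lowest, and both overlapped between the groups through before-peak replicate 3. Fitted log2 fold changes were 0.75 (SE 0.52, 95% interval -0.55 to 2.06; edgeR adjusted p = 0.712) for S100a8 and 0.59 (SE 0.42, 95% interval -0.45 to 1.63; edgeR adjusted p = 0.720) for S100a9. Without before-peak replicate 3 they were 1.33 and 1.05, without before-peak replicate 2 they were 0.43 and 0.32, and dropping with-peak replicate 1 gave 0.44 and 0.35. There were 0.559, 0.453 and 0.596 counts of S100a8 for each count of S100a9 before the peak and 0.665, 0.608 and 0.586 with it, the narrowest of the 12 ratios in spread over with-peak tumors. Keratinocytes also make S100A8 and S100A9. Keratinocyte markers summed to 95.4 to 104 CPM before the peak, then 60.0 to 86.2 CPM at the peak, with 7 of 12 markers in the table. Krt14 alone made up most of this sum, at 69.9 to 86.5 CPM before the peak and 49.4 to 68.7 CPM with it. Which cells of the tumor held Krt14 and Krt5 was not tested, so the sum does not measure keratinocytes. Of the 4 keratinocyte markers tested, Krt10 and Krt16 had log2 fold changes of 0.30 and 0.75 and Krt5 and Krt14 of -1.57 and -0.35, and their part in the levels of S100a8 and S100a9 was not tested. The keratinization genes Lor, Ivl and Krt6a had at most 8 counts in any tumor, and Krt1, Flg, Sprr1b, Dsg1a and Dsc1 had no row.

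Mmp8 (ENSMUSG00000005800, chromosome 9, 7558456 to 7568485, 10 exons), the neutrophil collagenase, had the smallest p of the axis. It was at 1.85, 3.60 and 2.25 CPM before the peak. The with-peak tumors were at 10.7, 3.29 and 5.43 CPM. Before-peak replicate 2 exceeded with-peak replicate 2, and with-peak replicate 1, with 152 counts against 23 to 56 in the other 5 tumors, stood apart. The fitted log2 fold change was 1.33 (SE 0.47, 95% interval 0.27 to 2.39; unadjusted p = 0.0192, edgeR adjusted p = 0.427), and 0.76 without with-peak replicate 1.

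Camp, Ctsg, Mpo and Elane, granule genes that neutrophil precursors transcribe in the bone marrow, also had their highest counts in with-peak replicate 1, while Prtn3 and Ltf had theirs in before-peak replicate 1 and with-peak replicate 2. Camp, the cathelicidin of secondary granules, had 3, 1 and 5 counts before the peak and 37, 2 and 11 with it. Ctsg, the cathepsin G of primary granules, had 0 counts in every before-peak tumor and 16, 1 and 5 with the peak. Mpo, the myeloperoxidase, had 11, 3 and 0 counts before and 21, 9 and 1 with the peak, and Elane, the neutrophil elastase, 1, 4 and 1 before and 12, 3 and 3 with it. These 4 genes were too low to test, and Prtn3, the 1 primary granule gene tested, had a log2 fold change of -0.10. Of the later granule genes, 6 of 7 were tested and 0 passed by edgeR or DESeq2, with 3 positive and 3 negative and 2 genes at an unadjusted p under 0.05, Ngp and Ltf. Ngp, a granule protein of neutrophils, was at 0.963, 1.33 and 2.25 CPM before and 5.89, 1.49 and 5.72 CPM with the peak (log2 fold change 1.52 with SE 0.57, edgeR adjusted p = 0.456). Ltf, the lactoferrin of secondary granules, was at 12.4, 8.30 and 4.67 CPM before and 12.8, 29.5 and 12.8 CPM with the peak (log2 fold change 1.12 with SE 0.45, edgeR adjusted p = 0.516).

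Per kb of transcript, the order of mean levels before the peak was S100a9, S100a8, Csf3, Cxcl1, Cxcl2, Csf3r, Cxcl5, Cxcl3, Cxcr2 and Mmp8. S100a9 stood at 174 ± 85.6 and S100a8 at 103 ± 62.0 CPM per kb (SD, n = 3), neighbours that overlapped within their spread. Csf3 followed at 35.1 ± 8.27 CPM per kb, and its receptor Csf3r at 9.64 ± 2.20. Cxcl1 at 18.4 ± 6.07, Cxcl2 at 11.6 ± 5.75, Cxcl5 at 8.77 ± 7.44 and Cxcl3 at 6.47 ± 5.10 CPM per kb lay within each other's spread from neighbour to neighbour. Cxcr2 at 3.24 ± 2.13 and Mmp8 at 1.06 ± 0.379 CPM per kb were lowest. With the peak, S100a9 at 261 ± 85.7, S100a8 at 174 ± 65.4 and Csf3 at 24.1 ± 12.0 CPM per kb again led. Cxcl1, at 11.9 ± 2.59 CPM per kb, came below Cxcl2 at 21.6 ± 12.5, Cxcl3 at 17.9 ± 14.5, Cxcl5 at 13.2 ± 5.24 and Csf3r at 13.0 ± 1.30, although all of these overlapped within their spread.

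**Figure D4:**
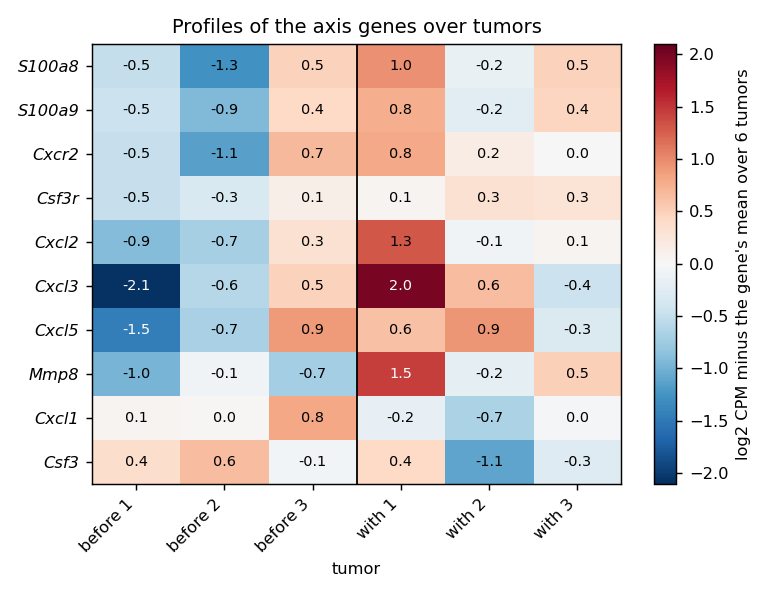
Log2 CPM (prior count 2) of each axis gene minus its own mean over the 6 tumors, as color and printed value, with before-peak tumors left of the black line. S100a8, S100a9 and Cxcr2 share a profile with before-peak replicate 3 near the with-peak tumors, while Cxcl1 and Csf3 do not follow it.

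The genes of the axis had different profiles across the 6 tumors. Measured as the root mean square difference between log2 CPM profiles after each was centred on its own mean, S100a8 and S100a9 differed by 0.168, Cxcr2 and S100a8 by 0.262 and Cxcr2 and S100a9 by 0.279. Any tested gene differed from Cxcr2 by a median of 0.714. Csf3 differed from Cxcr2 by 1.02, and its nearest member was Cxcl1, at 0.549. That was little nearer than the median of 0.625 between Csf3 and any tested gene, so Csf3 shared no close profile within the axis. With-peak replicate 1 was the highest tumor for 6 of the 10 genes, and before-peak replicate 1 the lowest for 5. Before-peak replicate 3 was the highest of its group for 8 of the 10, all but Csf3 and Mmp8. That tumor also held B and plasma cell markers at a summed 614 CPM, against 13.2 to 155 CPM in the other 5, and their part in the axis was not tested.

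Outside the axis, the 3 genes with profiles nearest to Cxcr2 over the 6 tumors were the predicted genes Gm10863, Gm44264 and Gm48065, with root mean square differences of 0.115, 0.141 and 0.206 on the log2 scale. Nearest to Csf3 were Gm37790, Fbxo2 and Gm16090, at 0.133, 0.142 and 0.147. Nearest to S100a9 were Spatc1, Phf7 and Zbtb32, at 0.192, 0.193 and 0.196.

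Of the other CXCR2-type genes, 3 of 5 were tested and 0 passed by edgeR or DESeq2, 0 also at an unadjusted p under 0.05, with log2 fold changes of 0.70 for Pf4, a platelet chemokine, 0.77 for Ackr1, a receptor that binds chemokines without signalling, and 1.17 for Ppbp, another platelet chemokine and CXCR2 ligand. Pf4 was at 36.3, 20.8 and 52.5 CPM before the peak, then 50.3, 73.5 and 54.1 CPM at the peak. Cxcl15 had 0 to 19 counts per tumor and was not tested.

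Among genes known to induce the ligands, the IL-17, IL-1, TNF and NF-kappaB list, 0 of 17 tested members passed in either direction, with 7 positive and 10 negative log2 fold changes and a median of -0.05. At an unadjusted p under 0.05 there were 0 higher and 1 lower, against 6.12% and 3.38% of all genes. DESeq2 called 1 gene, the same one, Il1b, and 1.55% of all genes, while 47.7% of all genes had a positive log2 fold change. Il1b, a cytokine known to induce CXCR2 ligands, had the smallest p, at 80.1, 99.4 and 107 CPM before the peak, then 62.6, 56.1 and 60.9 CPM at the peak (log2 fold change -0.68 with SE 0.13, edgeR adjusted p = 0.153). Its DESeq2 adjusted p was 0.0060. Without overlap of the groups, 2 genes of the list were lower at the peak, Il1b and Nfkb2, and 1 was higher, Tnfrsf1a. Over all genes these shares were 7.38% lower and 8.13% higher. Tnfrsf1a, a receptor of TNF, was at 119 ± 10.9 CPM before the peak and reached 140 ± 12.9 CPM at it (SD, n = 3; log2 fold change 0.24, SE 0.12, edgeR adjusted p = 0.587). The NF-kappaB subunits Nfkb1 and Rela had log2 fold changes of -0.27 and -0.07 (edgeR adjusted p = 0.650 and 0.859). Il17a, Il17f and Il17c were not analysed here.

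The other colony-stimulating factors and receptors gave 0 of 10 past the edgeR threshold, with 7 positive and a median log2 fold change of 0.33, 4 genes at an unadjusted p under 0.05, all higher, against 6.12% of all genes, and 1 called by DESeq2. For 5 receptor genes, Csf2rb2, Csf2rb, Csf2ra, Il3ra and Csf1r, all with-peak values lay above all before-peak values, as for 8.13% of all genes. Csf2rb2, a receptor subunit for IL-3 in the mouse, was at 38.2, 46.4 and 52.4 CPM before the peak, then 70.1, 76.0 and 62.5 CPM at the peak (log2 fold change 0.61 with SE 0.15, edgeR adjusted p = 0.244, DESeq2 adjusted p = 0.0449). Il3ra was at 8.99, 12.1 and 11.7 CPM before and 18.4, 27.0 and 14.8 CPM with the peak (log2 fold change 0.88 with SE 0.25, edgeR adjusted p = 0.343). The factors Csf1, Il34, Csf2 and Il6 overlapped between the groups, with log2 fold changes of -0.02 for Csf1, -0.07 for Il34, 0.41 for Csf2 and -0.81 for Il6.

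In the list of signalling and transcription factors of the granulocyte line, 0 of 11 passed by edgeR or DESeq2, with 7 positive, a median of 0.10 and 2 genes at an unadjusted p under 0.05. Spi1, the myeloid transcription factor PU.1, was at 60.9 ± 8.15 CPM before the peak, then 80.5 ± 8.78 CPM at the peak (SD, n = 3; log2 fold change 0.40, SE 0.14, edgeR adjusted p = 0.401). Cebpd had a log2 fold change of 0.40 (with SE 0.18, edgeR adjusted p = 0.523). Socs3, a target and brake of CSF3R signalling, had one of 0.20 (SE 0.12, edgeR adjusted p = 0.641).

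Of the mature neutrophil genes 21 of 23 were tested and 0 passed by edgeR. Log2 fold changes were positive for 15 of the 21, with a median of 0.40. The unadjusted edgeR p fell below 0.05 for 3, all higher with the peak, and DESeq2 called 1. Shares over all genes were 47.7% positive, 9.5% below that p (6.12% higher) and 1.55% called by DESeq2. The same shares are the background for the other lists. Clec4d, a C-type lectin receptor, was at 7.95, 8.46 and 15.8 CPM before the peak, then 22.0, 33.6 and 20.8 CPM at the peak (log2 fold change 1.25 with SE 0.31, edgeR adjusted p = 0.270, DESeq2 adjusted p = 0.0099). Clec4e, a related receptor, had a log2 fold change of 0.79 (with SE 0.32, edgeR adjusted p = 0.498). Retnlg, a marker of mature neutrophils, was at 6.82, 3.05 and 15.3 CPM before and 18.4, 2.90 and 12.7 CPM with the peak, again with before-peak replicate 3 and with-peak replicate 1 highest of their groups. Ly6g, which defines mouse neutrophils by antibody, had only 2 to 13 counts per tumor and was not tested. The summed level of the list was 626 to 775 CPM before the peak, then 584 to 813 CPM at the peak. Padi4 alone, at 240 to 432 CPM, was a large part of this sum in every tumor, so the sum does not measure the list evenly.

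Adhesion molecules of neutrophil exit from blood gave 0 of 11 past the threshold by edgeR or DESeq2, with 8 positive, a median of 0.32 and 2 genes at an unadjusted p under 0.05. The integrin genes Itgb2 and Itgam had groups that did not overlap, higher with the peak, as for 8.13% of all genes. Their log2 fold changes were 0.46 (SE 0.13, edgeR adjusted p = 0.320) and 0.56 (SE 0.19, edgeR adjusted p = 0.397). The endothelial selectins Sele and Selp overlapped between the groups. Of the receptors of S100A8 and S100A9, 0 of 7 passed by edgeR, with 5 positive, a median of 0.35, 2 genes at an unadjusted p under 0.05 and 1 called by DESeq2. Cd14, the co-receptor of TLR4, was at 57.6, 50.3 and 52.9 CPM before the peak, then 119, 78.4 and 96.3 CPM at the peak (log2 fold change 0.87 with SE 0.16, edgeR adjusted p = 0.119, DESeq2 adjusted p = 0.000628). Tlr4 was at 29.5, 36.3 and 34.3 CPM before and 48.7, 45.2 and 45.4 CPM with the peak (log2 fold change 0.48 with SE 0.13, edgeR adjusted p = 0.316). The groups did not overlap for Cd14, Tlr4 and Bsg, another receptor of the list, with the higher values at the peak, as for 8.13% of all genes.

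**Figure D5:**
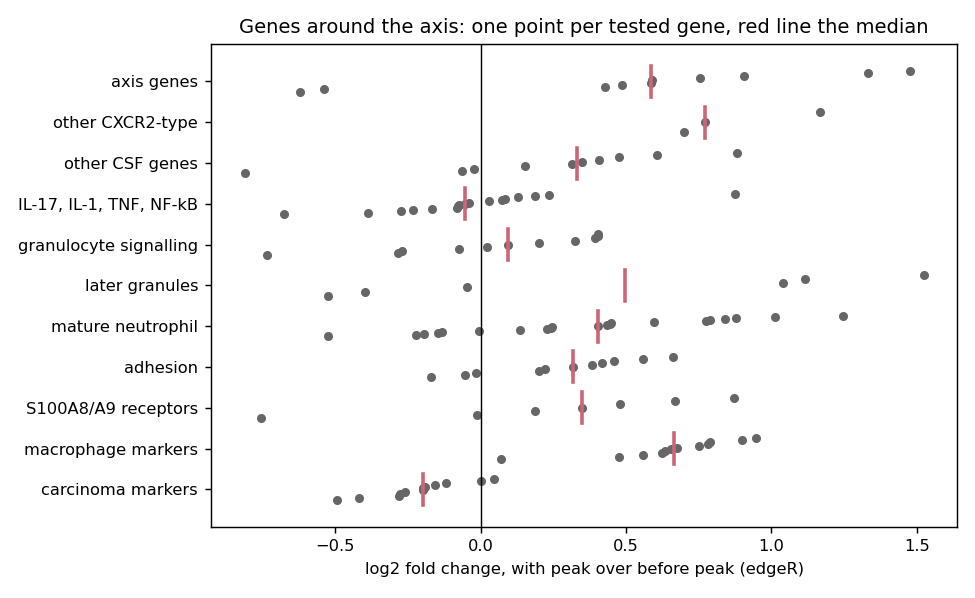
Log2 fold change of every tested gene (grey points; horizontal axis, with peak over before peak, edgeR) in the axis and in 10 lists around it, with the list median in red. The axis genes spread from -0.62 to 1.48 around a median of 0.59, and the macrophage markers all lie above 0 with a median of 0.67.

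Several of these receptors are shared with other myeloid cells, and macrophage and monocyte markers summed higher in each with-peak tumor than in any before-peak tumor, at 2090 to 3460 CPM before the peak, then 3854 to 5599 CPM at the peak. All 12 of these markers had positive log2 fold changes, against 47.7% of all genes, with a median of 0.67. By edgeR 0 passed the adjusted threshold and 10 had an unadjusted p under 0.05, all higher, against 6.12% of all genes. DESeq2 called 3 of them and 1.55% of all genes. Csf1r and Itgam stand in the macrophage list as well. None of the 12 was at 0 in every tumor, and their part in Csf3r, Cd14 and the other receptors was not tested. Skeletal muscle and red cell markers were highest in with-peak replicates 2 and 3, the tumors lowest in Csf3, with muscle markers at 1427 and 1472 CPM against 65.5 to 266 CPM in the other 4 tumors, and their part in the result was not tested. Total counts ran from 10591067 to 14549357 per tumor.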

How the data were processed

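The authors deposited 1 table of unnormalised counts (whole numbers per gene) with a column for each of 6 tumors, per the file headers. The submitters' processing notes name FastQC, STAR and the build mm10; which counter and annotation followed is not given in the sources used here. Per the labels' protocols, the libraries were oligo(dT)-selected, paired-end and unstranded. Symbols, coordinates and exons come from GENCODE M21 on GRCm38, the assembly of mm10; 23479 of 23508 identifiers matched. No other annotated gene overlaps an axis gene. Promoters come from the RefSeq table.

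Counts were fitted with edgeR 4.0.16 in R 4.3.3 (TMM, low counts removed by filterByExpr at its settings of 10 per sample and 15 in total, robust quasi-likelihood test, two-sided, threshold 0.05), and p-values were adjusted over all 16755 tested genes. The SE is the size of the log2 fold change divided by the root of F, and 95% intervals use it. The test was tried on simulated data with known changes. CPM are TMM-normalised, and CPM per kb use the longest principal transcript. Alternatives included DESeq2 1.42.0 and limma 3.58.1. Samples of a group differed far beyond sampling noise (chi-square per degree of freedom 17.1 to 28.9), so none was counted as a duplicate. As separate animals are not stated, p-values measure the spread between these samples, which may be technical.

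The members and lists were chosen with earlier results of these data known. Named list genes are the 2 with the smallest p in each pathway list, and others were chosen after their values were seen.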

Additional observations from a re-analysis of the deposited data

How the results depend on the processing

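None of the 10 axis genes crossed the threshold or changed sign in any of 17 alternatives, with adjusted p from 0.175 (Cxcl5, 2 against 2) to 0.977. The alternative at an adjusted p under 0.1 has the fold changes of the main fit, so it tests the threshold and not the sign. Over all genes the count moved from 0 higher and 0 lower to 236 and 24 with DESeq2, 26 and 3 with no filter on low counts, 32 and 3 at an adjusted p under 0.1, and 4 higher in the 2 against 2 fit that drops replicate 3 of both groups; the cause was not tested. Leaving out 1 tumor gave 0 to 17 genes higher and 0 lower, the largest counts being 17 when before-peak replicate 2 was dropped, 13 for before-peak replicate 3 and 9 for with-peak replicate 1. Deviations of same-numbered tumors correlated at -0.06, -0.10 and 0.03, so the replicate numbers show no pairing; a fit with replicate block called 1 gene higher and 0 lower. The share of Cxcl1 among the ligands differed by -22.7 percentage points, by -21.0 with all exonic bases, by -20.3 with no length, and by -28.7 to -17.6 without 1 tumor; these alternatives were chosen after seeing the data. Genes under the filter on low counts, such as Camp, Ctsg and Cxcr1, were given as counts and not tested at the main settings.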

Other observations

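Padi4, an enzyme that neutrophils use to release their chromatin, stood far above Ly6g among the listed neutrophil genes. Padi4 was at 432, 381 and 282 CPM before the peak, then 395, 240.0 and 322 CPM at it (log2 fold change -0.19 with SE 0.21, edgeR adjusted p = 0.806). Per kb of transcript it ranked 3 of the 48 neutrophil and axis genes ranked, with 104 to 187 CPM per kb, while Ly6g ranked 43 with 0.177 to 1.08 CPM per kb. Among the same genes Lcn2, the lipocalin of secondary granules, ranked 2 with 105 to 288 CPM per kb, and Mmp9, the gelatinase, ranked 5 and reached its highest level in before-peak replicate 2, at 794 CPM against 214 to 445 CPM in the other 5 tumors. Retnlg ranked 12, Cxcr2 30 and Ngp 35 of the same 48 genes. Which cells of the tumor held the RNA of Padi4, Lcn2 and Mmp9 was not tested, so their levels do not measure neutrophils. All genes named here were chosen after their values were seen.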
